A study of Mus musculus with 6 samples.

Results

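The genes of the cytosolic ribosomal proteins (RPs) were examined in mouse lung fibroblasts (LFs) exposed to TGFβ. They were taken as the protein-coding genes whose symbol is Rpl or Rps followed by a digit, together with Rplp0, Rplp1, Rplp2 and Rpsa. The S6 kinase genes, Rps19bp1 and symbols with -ps, the ending of pseudogenes, were left out, and an average of at least 10 raw counts per library was required. This left 82 genes of the 55364 genes listed, 49 of the large ribosomal subunit and 33 of the small subunit. Rpl3l, Rpl10l and Rpl39l matched the symbol rule and did not reach the count minimum. Libraries came from primary LFs of 3 wt cultures and 3 cultures whose genotype label is TKS5 knockout, and all of them had received 10 ng/ml TGFβ for 24 h in medium without serum. The paper describes the second genotype as Tks5+/-, a heterozygous germline deletion made with Cre under the ubiquitous CMV promoter, and the LFs as taken at low passage from young adult littermates on a C57Bl6/J background. The labels do not say whether the replicates came from separate animals. The p-values therefore measure the spread between these cultures, which may be technical.

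A ribosome consists of a small subunit, which reads the mRNA, and a large subunit, which joins the amino acids, and most RPs are present once per ribosome. RP mRNAs are among the most abundant of a cell and most begin with a terminal oligopyrimidine (TOP) tract, through which mTORC1 and Larp1 regulate their translation. The RNA of the ribosome is transcribed by RNA polymerase I and assembled with the proteins in the nucleolus. The mouse genome also carries many processed pseudogenes of RP genes, which are copies of the mRNA inserted back into the chromosomes, and a short read can fit a gene and its copies equally well.

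The RNA was sequenced by Quant-Seq, which reads the end of polyadenylated transcripts, to a depth of 1344507 to 2369882 counts per library. The targeted gene Sh3pxd2a, which encodes Tks5, was not lower in the libraries labelled TKS5 knockout, with counts of 205, 190 and 284 in the wt and of 238, 258 and 260 in the other libraries, which edgeR fitted with a log2 fold change of 0.29 (95% interval -0.13 to 0.71, adjusted p = 0.249). After the correction for transcript length described with the other settings, Sh3pxd2a was called higher (0.99, adjusted p = 5.71e-04). The paper describes the loss of an internal exon of Sh3pxd2a and reports lower Tks5 mRNA in Tks5+/- LFs by Q-RT-PCR. The counts used here are sums over 3′ UTR regions and cannot show whether that exon was lost. They therefore do not settle the genotype of these libraries. Every direction below rests on the labels, and these libraries are called KO-labelled. The 9 fibroblast markers were present in all libraries, with a summed level of 3880 to 5250 CPM in wt and 5600 to 8710 CPM in KO-labelled libraries. Of these 9, 4 were called higher (44.4%, against 22.8% of all genes), 1 lower (11.1%, against 22.1%) and 4 were not called. The groups overlapped in 6 of them, so that the sum does not stand for each marker. The 8 macrophage and leukocyte markers summed to 290, 271 and 1640 CPM in wt, where replicate 3 stood apart, and to 117 to 136 CPM in KO-labelled libraries. The 5 endothelial markers summed to 80.3 to 106 CPM in wt against 19.3 to 26.1 in KO-labelled libraries. The 4 mesothelial markers summed to 18.2 to 23.8 CPM against 2.56 to 8.23. The 8 alveolar and airway epithelial markers, 4 of them at 0 in every library, summed to 14.4 to 37.4 CPM against 29.2 to 60.3. The 6 smooth muscle and pericyte markers summed to 780 to 830 CPM against 1780 to 3240. Among the 5 of them tested, however, 2 were called higher and 3 lower, with a median log2 fold change of -1.27. Their higher sum therefore does not stand for most of these genes. The Y-linked gene Ddx3y had 146, 159 and 210 counts in wt and 25, 19 and 21 in KO-labelled libraries, and Nnt, which differs between C57BL/6 substrains, had 47, 89 and 107 against 36, 18 and 19. Whether cell makeup, the sex of the cells or the substrain has a part in the results below was not tested.

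RP genes took a larger part of the reads in the KO-labelled libraries. Their summed share of all counts was 6.62%, 6.82% and 6.83% in the wt replicates and 11.2%, 12.3% and 11.6% in the KO-labelled replicates. The groups did not overlap, and the means were 6.76% ± 0.121 (SD, n = 3) and 11.7% ± 0.584 (SD, n = 3), a ratio of 1.73. The 95% Wilson intervals of these shares cover counting error only and the widest ran from 12.28% to 12.37%. Reads are a share of a fixed total, so that more RP mRNA per cell, less of other mRNA and a different mix of cells cannot be told apart here.

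**Figure D1:**
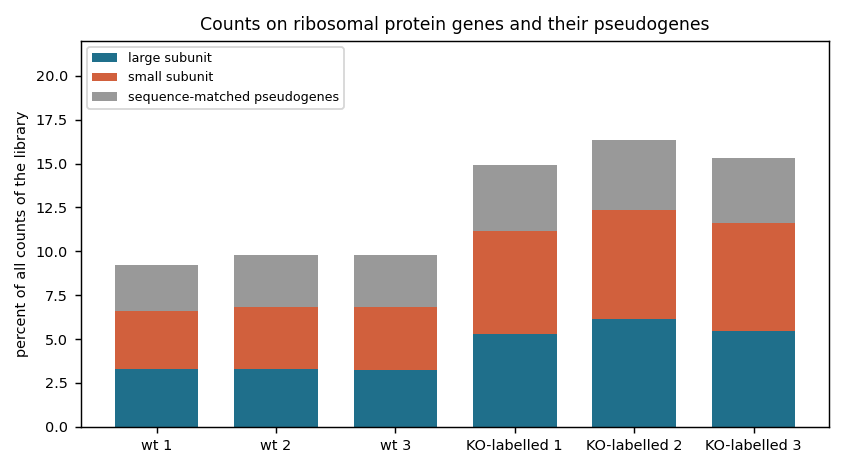
The stacked bars give, for each library (horizontal axis), the percent of all its counts (vertical axis) on genes of the large subunit, the small subunit and the pseudogenes whose transcript matches that of a member. The share of the member genes lies between 6.62% and 6.83% in the wt libraries and between 11.2% and 12.3% in the KO-labelled libraries.

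The subunits moved together. Large subunit genes took 3.28% ± 0.0321 (SD, n = 3) of the counts in wt and 5.62% ± 0.459 (SD, n = 3) in KO-labelled libraries, a ratio of 1.71. Small subunit genes took 3.47% ± 0.146 (SD, n = 3) and 6.08% ± 0.165 (SD, n = 3), a ratio of 1.75. Of the counts on members, the small subunit held 49.97%, 51.77% and 52.44% in wt and 52.73%, 50.16% and 53.11% in KO-labelled libraries, so that the balance between the subunits overlapped between the groups.

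Gene by gene, 73 of the 82 members were higher in KO-labelled libraries, 0 were lower and 9 were not called. A call required an adjusted p under 0.05 in edgeR's quasi-likelihood F test, with Benjamini-Hochberg adjustment over the 10346 genes tested, and a fold change of at least 1.2. All 82 members passed the filter on low counts. Over all genes tested, 22.8% were called higher and 22.1% lower, so that the 89.0% of members called higher stood well above the share among all genes. The median log2 fold change was 1.19 over the members and -0.046 over all genes, and it was above 0 for 79 members. The CPM (counts scaled to the TMM-adjusted library size) of all 3 KO-labelled libraries lay above all 3 wt libraries for 74 members, against 26.1% of all genes, and for 8 members the groups overlapped. Fold changes of the called members ran from 1.44 to 10.4, with 50 members over 2-fold and 7 over 4-fold. In the large subunit 42 of 49 genes were called, with a median log2 fold change of 1.19, and in the small subunit 31 of 33, with a median of 1.17. Leaving out each library in turn, 63 members were called higher in all 6 fits, a count that was not made over all genes.

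**Figure D2:**
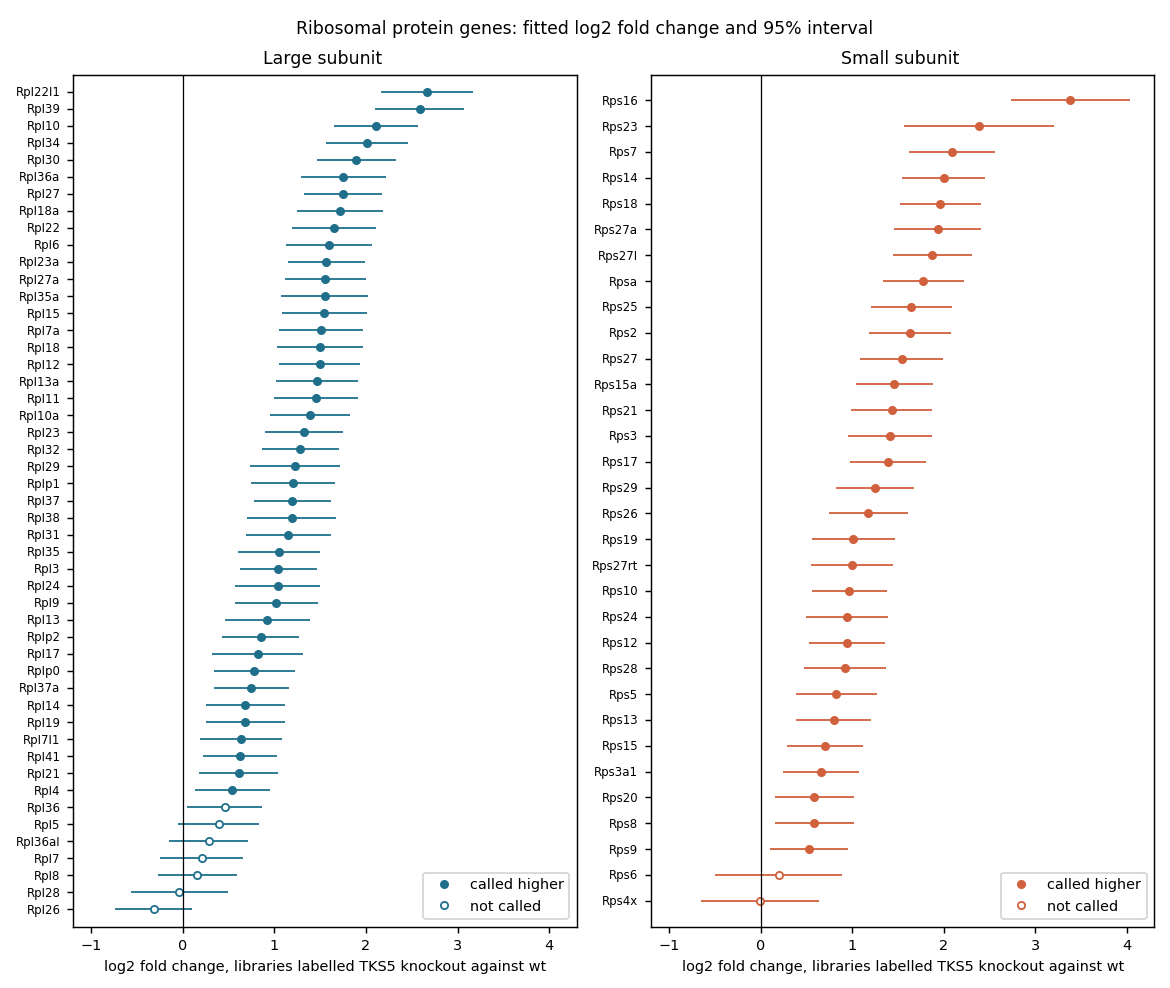
Each point is the fitted log2 fold change (horizontal axis) of a member gene (vertical axis), KO-labelled against wt libraries, with its 95% interval as a line, for the large subunit on the left and the small subunit on the right. Filled points were called higher, open points were not called, and the values run from -0.32 for Rpl26 to 3.38 for Rps16.

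The first bases of the mRNA were searched for the TOP tract that members of the family are known for. In RefSeq (GRCm38.p6), starts were found for 62 of the 82 members, and a C followed by at least 5 bases that are C or T began within 10 bases of the annotated start, on the transcribed strand, in 34 of them (54.8%). The share was 21.9% of all 27025 genes in that table and 23.5% of the genes tested here. The median log2 fold change was 1.44 over the 34 members with such a tract and 0.97 over the other 28, a description of members whose annotated starts may not be those used in these cells. The sequences printed here run from 10 bases before the annotated start and carry the tract in capitals. The members shown are a choice among those that rose or were not called, and do not show how often a tract goes with a rise. Of strongly rising members not printed, Rps23 (2.38) and Rpl34 (2.01) had a tract, and none was found for Rpl10 (2.11) and Rps7 (2.09). Nor was a tract found for Rpl5, Rpl36al and Rps4x, which were not called.

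Rpl22l1: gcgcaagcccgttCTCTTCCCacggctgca

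Rpl39: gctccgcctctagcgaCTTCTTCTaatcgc

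Rps18: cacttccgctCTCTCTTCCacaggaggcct

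Rpl13a: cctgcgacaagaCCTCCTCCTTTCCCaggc

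Rps6: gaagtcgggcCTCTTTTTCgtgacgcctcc

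Rpl28: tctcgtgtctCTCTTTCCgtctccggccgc

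Rps16: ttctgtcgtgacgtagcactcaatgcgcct

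Rpl26: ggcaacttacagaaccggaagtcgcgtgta

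Rpl22l1 is read from chr3:28805498-28805527, Rpl28 from chr7:4792955-4792984, Rps16 from chr7:28350679-28350708 and Rpl26 from chr11:68901556-68901585, all on the forward strand. Rpl39 is read from chrX:37085203-37085232, Rps18 from chr17:33955646-33955675, Rpl13a from chr7:45128726-45128755 and Rps6 from chr4:86857348-86857377, all on the reverse strand. A tract stood in this window of Rps6 and Rpl28, which were not called, and these letters were not found in that of Rps16, which had the highest fold change of the family.

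From their own counts, the largest rises were those of Rps16, Rpl22l1, Rpl39, Rps23 and Rpl10. Rps16, a protein of the head of the small subunit, had 95.3, 81.9 and 77.9 CPM in wt and 623, 1420 and 606 CPM in KO-labelled libraries. The log2 fold change of Rps16 was 3.38, with a 95% interval of 2.73 to 4.03 (adjusted p = 2.51e-07), and it was 2.89 without KO-labelled replicate 2, the highest of the 6 libraries. With the counts of its matched pseudogenes added, as described with the pseudogenes, Rps16 had a log2 fold change of 1.34 and was no longer the highest of the family. Rpl22l1, the paralog of Rpl22, went from 69.5, 106 and 120 CPM to 486, 755 and 648 CPM, or 2.67 on the log2 scale with a standard error of 0.24 (adjusted p = 2.66e-08). Its end is overlapped by Gm33051 on the opposite strand, whose reads could not be told apart from its own if the counting ignored strand. Rpl39, a small protein at the wall of the exit tunnel, had 514, 542 and 368 CPM in wt and 2660, 3530 and 2340 CPM in KO-labelled libraries, or 2.58 on the log2 scale with a standard error of 0.23 (adjusted p = 2.66e-08). In each of these the lowest KO-labelled library lay above the highest wt library, although the KO-labelled values of Rps16 spread from 606 to 1420 CPM.

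Rps23, which contributes to the decoding centre, had 119, 95.2 and 74.9 CPM in wt and 338, 843 and 322 CPM in KO-labelled libraries. Replicate 2 again stood above the other KO-labelled libraries, and the log2 fold change of 2.38, with a standard error of 0.37 (adjusted p = 4.01e-04), was 1.81 without it. Rpl10, which joins the large subunit late in its assembly, went from 231, 173 and 153 CPM to 729, 952 and 712 CPM, or 2.11 on the log2 scale with a standard error of 0.22 (adjusted p = 1.93e-07). These members were followed by Rps7 (2.09) and Rpl34 (2.01), and by Rps14, one of the members with the most counts, which had 1780, 1490 and 1550 CPM in wt and 5170, 6600 and 7470 CPM in KO-labelled libraries (log2 fold change 2.00, adjusted p = 3.06e-07).

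**Figure D3:**
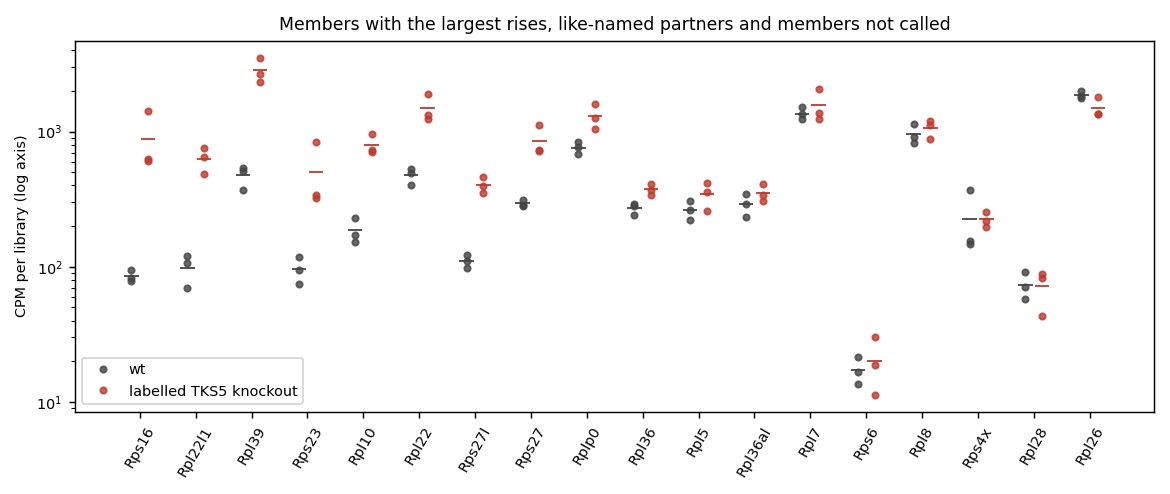
The CPM of each library (vertical axis, log scale) is shown for the 5 members with the largest rises, for Rpl22, Rps27l, Rps27 and Rplp0, and for the 9 members not called, with a bar at the mean of each group of 3 libraries. The wt and KO-labelled points of Rps16 are separated (77.9 to 95.3 against 606 to 1420 CPM), whereas those of Rpl26 overlap (1770 to 2000 against 1350 to 1790 CPM).

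The members that took the most counts also rose, by less than these. Rps24, whose human gene like that of Rps19 is mutated in Diamond-Blackfan anaemia, had 2890, 3680 and 3740 CPM in wt and 5660, 6300 and 7920 CPM in KO-labelled libraries, a log2 fold change of 0.95 (adjusted p = 1.14e-03). In the authors' normalized counts Rps24 was not called (limma, 0.18, adjusted p = 0.435). Rps19 went from 2370, 3530 and 3470 CPM to 6300, 5560 and 7040 CPM (1.01, adjusted p = 7.19e-04). Rpl36a, near the exit site of the tRNA, rose from 1740, 1580 and 1700 CPM to 4240, 7180 and 5490 CPM (1.75, adjusted p = 2.16e-06). In Rpl12, at the base of the stalk, the libraries had 1520, 1760 and 1750 CPM against 3900, 5550 and 4720 CPM (1.49, adjusted p = 7.96e-06). In each of these the lowest KO-labelled library lay above the highest wt library.

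The proteins of the acidic stalk, which recruits elongation factors to the large subunit, all rose. Rplp0, the scaffold of the stalk and a common reference gene in Q-RT-PCR, had 835, 682 and 765 CPM in wt and 1040, 1610 and 1270 CPM in KO-labelled libraries, or 0.78 on the log2 scale with a standard error of 0.21 (adjusted p = 4.78e-03). Rplp1 went from 2720, 2850 and 2970 CPM to 4750, 7750 and 7140 CPM (1.2, adjusted p = 1.44e-04), and Rplp2 from 2210, 1770 and 1910 CPM to 3560, 3270 and 3770 CPM (0.85, adjusted p = 1.83e-03). After each library had been corrected for how its counts follow transcript length, the log2 fold changes were 0.38, 0.45 and 0.27 for Rplp0, Rplp1 and Rplp2 and none was called (adjusted p = 0.141, 0.0799 and 0.292). With library totals as scaling Rplp0 (0.34, adjusted p = 0.142) and Rplp2 (0.43, adjusted p = 0.0646) were not called, nor were they in the normalized counts (limma, adjusted p = 0.419 and 0.763).

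Several members are known for roles beside the ribosome. Rpsa, the laminin receptor, had 865, 900 and 750 CPM in wt and 2360, 3330 and 2900 CPM in KO-labelled libraries (log2 fold change 1.77, adjusted p = 1.00e-06), and Rps27a, which is made as a fusion with ubiquitin, had 768, 634 and 556 CPM against 1850, 3040 and 2590 CPM (1.93, adjusted p = 8.03e-07). Rpl11, which binds the 5S rRNA together with Rpl5 and can inhibit Mdm2, went from 1220, 1260 and 1760 CPM to 3170, 4250 and 4200 CPM (1.46, adjusted p = 1.67e-05). Its partner Rpl5 was not called, and its values are given with the other members not called. Rpl13a, which can leave the ribosome to silence inflammatory mRNAs, rose from 1250, 1370 and 1370 CPM to 3030, 4650 and 3340 CPM (1.47, adjusted p = 1.20e-05).

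Rpl38, needed for the translation of certain Hox mRNAs, had 490, 585 and 572 CPM in wt and 885, 1750 and 1120 CPM in KO-labelled libraries (1.19, adjusted p = 2.91e-04) and was not called after the length correction (0.41, adjusted p = 0.123). Rpl10a, of the stalk beside the exit site, went from 90.1, 76.5 and 63.0 CPM to 182, 210 and 207 CPM (1.39, adjusted p = 1.51e-05). Rps18, at the bridge between the subunits, had 1050, 757 and 798 CPM against 3210, 3680 and 3280 CPM (1.96, adjusted p = 3.06e-07), and Rpl32, another common reference gene, 413, 513 and 416 CPM against 1070, 1160 and 1030 CPM (1.28, adjusted p = 2.54e-05). None of these groups overlapped. The other called members had log2 fold changes of 0.53 for Rps9 to 2.09 for Rps7.

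Some members have a like-named paralog. Rpl22l1 and Rpl22 both rose, and Rpl22 had 403, 497 and 525 CPM in wt and 1230, 1910 and 1330 CPM in KO-labelled libraries (1.65, adjusted p = 3.89e-06). Rps27l, a p53 target, went from 111, 123 and 97.1 CPM to 354, 461 and 395 CPM (1.87, adjusted p = 3.64e-07), Rps27 from 312, 287 and 283 CPM to 736, 1110 and 718 CPM (1.54, adjusted p = 6.74e-06), and the retrogene Rps27rt had a log2 fold change of 1.00. Rpl36a rose, and its relative Rpl36al had a log2 fold change of 0.28 (adjusted p = 0.286). Rpl7l1, a nucleolar relative of Rpl7, was called with 38.6, 43.3 and 41.2 CPM against 54.9, 66.1 and 70.1 CPM (0.63, adjusted p = 0.0210), and Rpl7 was not (0.20, adjusted p = 0.470). Rpl7l1 lost its call when any wt replicate was left out (adjusted p = 0.0661, 0.0565 and 0.0585 without replicates 1, 2 and 3), without KO-labelled replicate 3 (0.0593), and with library totals as scaling (0.21, adjusted p = 0.440). The differences between the paralogs of a pair were not tested. Near-identical stretches can split reads between paralogs in the authors' counting.

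The 9 members that were not called were Rpl5, Rpl7, Rpl8, Rpl26, Rpl28, Rpl36 and Rpl36al of the large subunit and Rps4x and Rps6 of the small subunit. Rpl26, near the exit of the tunnel, had the lowest log2 fold change, with 2000, 1840 and 1770 CPM in wt and 1350, 1790 and 1350 CPM in KO-labelled libraries (-0.32, standard error 0.20, adjusted p = 0.211) and at least 2466 counts in every library. Its 95% interval ran from -0.74 to 0.10 and so did not reach the median of the family. After the length correction Rpl26 was called lower (-1.02, adjusted p = 2.70e-04), as it was with library totals as scaling. Rpl8, close to the peptidyl transferase centre, had 817, 919 and 1130 CPM against 887, 1110 and 1200 CPM (0.16, adjusted p = 0.562). In Rpl7 the libraries had 1510, 1340 and 1230 CPM against 2070, 1380 and 1250 CPM, and in the authors' normalized counts Rpl7 was called lower (limma, -0.71, adjusted p = 0.022). The groups overlapped in all 3 genes.

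Rps6, the substrate of the S6 kinases, had the fewest counts of the family, 21, 31 and 58 in wt and 55, 32 and 22 in KO-labelled libraries, which came to 13.5, 16.6 and 21.5 CPM against 30.2, 18.7 and 11.3 CPM (0.19, standard error 0.33, adjusted p = 0.662). Its 95% interval ran from -0.50 to 0.89. Rps4x, the X-linked copy of Rps4, had 147, 155 and 369 CPM in wt and 219, 256 and 197 CPM in KO-labelled libraries (-0.01, adjusted p = 0.988). The highest value was that of wt replicate 3, the library with the most macrophage marker counts, and without it the log2 fold change of Rps4x was 0.56 (adjusted p = 0.0556). Rpl28, whose end overlaps Ube2s on the opposite strand, had 71.4, 91.5 and 57.8 CPM against 82.9, 88.4 and 43.5 CPM (-0.04, adjusted p = 0.915).

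Rpl5 had 306, 265 and 222 CPM in wt and 417, 360 and 260 CPM in KO-labelled libraries (0.39, adjusted p = 0.147), overlaps Fam69a on the opposite strand, and was called without KO-labelled replicate 3 (0.59, adjusted p = 0.0487). Rpl36al had 233, 289 and 345 CPM against 412, 337 and 308 CPM. Rpl36, named here because its values were seen, was the one gene not called whose groups did not overlap, with 241, 291 and 282 CPM against 337, 411 and 370 CPM (0.46, adjusted p = 0.0651), and it was called without KO-labelled replicate 1 (0.58, adjusted p = 0.0277), with DESeq2 (adjusted p = 0.0381) and with the GC correction (adjusted p = 3.17e-03). After the length correction Rpl36 changed sign and was not called (-0.33, adjusted p = 0.17). Nor was it called with pseudogene counts added (0.32, adjusted p = 0.188).

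How unequally the members moved was measured by scaling each library to its summed RP counts, which sets the family as a whole to no change. Against that, 17 members were higher and 22 lower, whereas 3.29% of all genes tested were higher and 70.4% lower. The 17 were led by Rps16 (2.13), Rpl22l1 (1.45), Rpl39 (1.36) and Rps23 (1.12). At the other end stood Rpl26 (-1.54, adjusted p = 9.50e-07), Rpl28 (-1.24, adjusted p = 4.23e-04), Rps4x (-1.21, adjusted p = 1.07e-03) and Rpl8 (-1.05, adjusted p = 8.97e-05). Rplp0 (-0.45, adjusted p = 0.0445) was also among the 22. Since the members' own counts set the reference, members on both sides of it follow from the scaling itself. These values come from own counts, without those of pseudogenes.

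Pseudogenes held a good part of the reads that belong to this family by sequence. Of 2927 pseudogenes with a count, 951 matched the transcript of a member with at least 80% identity over at least 50% of their length, and 80 of the 82 members had such a copy. Their share of all counts was 2.84% ± 0.184 (SD, n = 3) in wt and 3.83% ± 0.159 (SD, n = 3) in KO-labelled libraries, a ratio of 1.35, and 17 members had fewer counts than their pseudogenes. Rps23-ps1, whose transcript was identical to its part of that of Rps23, had 1493, 1827 and 2093 counts in wt and 5636, 7240 and 8592 in KO-labelled libraries, more than Rps23 itself, which had 185, 178 and 202 against 616, 1441 and 629. The members themselves held 71.6%, 69.8% and 70.0% of the joint counts in wt and 74.8%, 75.4% and 75.8% in KO-labelled libraries, and this percent was higher in all KO-labelled libraries for 49 of the 80 members and lower for 1. The counted split between gene and copies thus differed between the groups, a difference that was not tested. How reads with several positions were placed is not given in the sources used here. Rps16 held 11.0%, 10.0% and 11.0% of the joint counts with its pseudogenes in wt and 41.1%, 49.6% and 37.3% in KO-labelled libraries.

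With the counts of matched pseudogenes added to each member, an alternative chosen after seeing the data, 69 members were called higher and 1 lower, against 22.6% and 22.1% of the genes tested in that fit. The median log2 fold change was 1.02, and 68 members were called higher in both fits. Rps16 moved most, from 3.38 to 1.34 (adjusted p = 8.68e-05), while Rps23 (2.12), Rpl39 (2.45) and Rpl22l1 (2.55) moved less. Rps3a1, with 85.6% of the joint counts on pseudogenes, went from 0.66 to -0.11 (adjusted p = 0.710), and Rpl19 (0.39, adjusted p = 0.119), Rpl41 (0.16, adjusted p = 0.530) and Rps9 (0.42, adjusted p = 0.105) were among those no longer called. In the other direction Rps6 was called higher (0.61, adjusted p = 0.0313) and Rpl28 lower (-0.59, adjusted p = 0.0248), and Rpl5 had a log2 fold change of 0.001. Of the 22 members with under 10% of the joint counts on pseudogenes, 19 were called higher from their own counts, with a median of 1.01. Of the 17 with over 50%, 13 were called higher, with a median of 1.03. From own counts, 22.8% of all genes were called higher. With pseudogene counts added, the medians of the 22 and of the 17 members were 1.0 and 0.75.

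**Figure D4:**
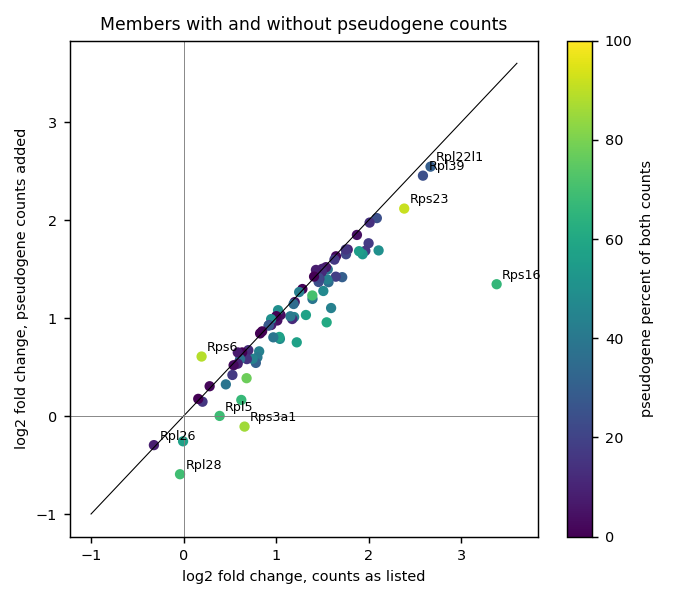
Each point is a member, with its log2 fold change from its own counts on the horizontal axis, that with the counts of matched pseudogenes added on the vertical axis, and the pseudogene percent of both counts as colour. Most points lie near the diagonal, Rps16 lies far below it (3.38 against 1.34), and Rps6 lies above it (0.19 against 0.61).

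The members share features that the symbol rule did not use. Their longest transcripts measured 374 to 5179 bases with a median of 1100, against 3204 over the genes tested, and 79 of the 82 were shorter than that. Over 10339 genes transcript length and log2 fold change had a Spearman correlation of -0.397, whereas among the members it was -0.042, and there the correlation of the log2 fold change was -0.189 with GC content, 0.157 with the mean count, 0.045 with the length of the 3′ UTR and 0.034 with the pseudogene percent. These points share the same 6 libraries. After the correction for transcript length, 51 members were called higher and 1 lower, against 20.9% and 18.0% of all genes, and the median log2 fold change was 0.73 (0.016 over all genes). Among the 22 calls lost were those of Rps15 (-0.02, adjusted p = 0.945) and Rpl37a (0.07, adjusted p = 0.797), and among those that held were Rps16 (2.84, adjusted p = 3.97e-07) and Rpl22l1 (2.50, adjusted p = 3.96e-08). With library totals alone as scaling, 55 members were called higher and 1 lower, against 13.2% and 38.1% of all genes. The median of all genes was then -0.46 and that of the members 0.76. The distance between the medians was 1.22, compared with 1.24 under TMM. A change of scaling moves all genes nearly alike, so that this distance could hardly change and is no check on the result. The 82 genes lie on 19 chromosomes, with 14 on chromosome 7 and 4 on X.

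**Figure D5:**
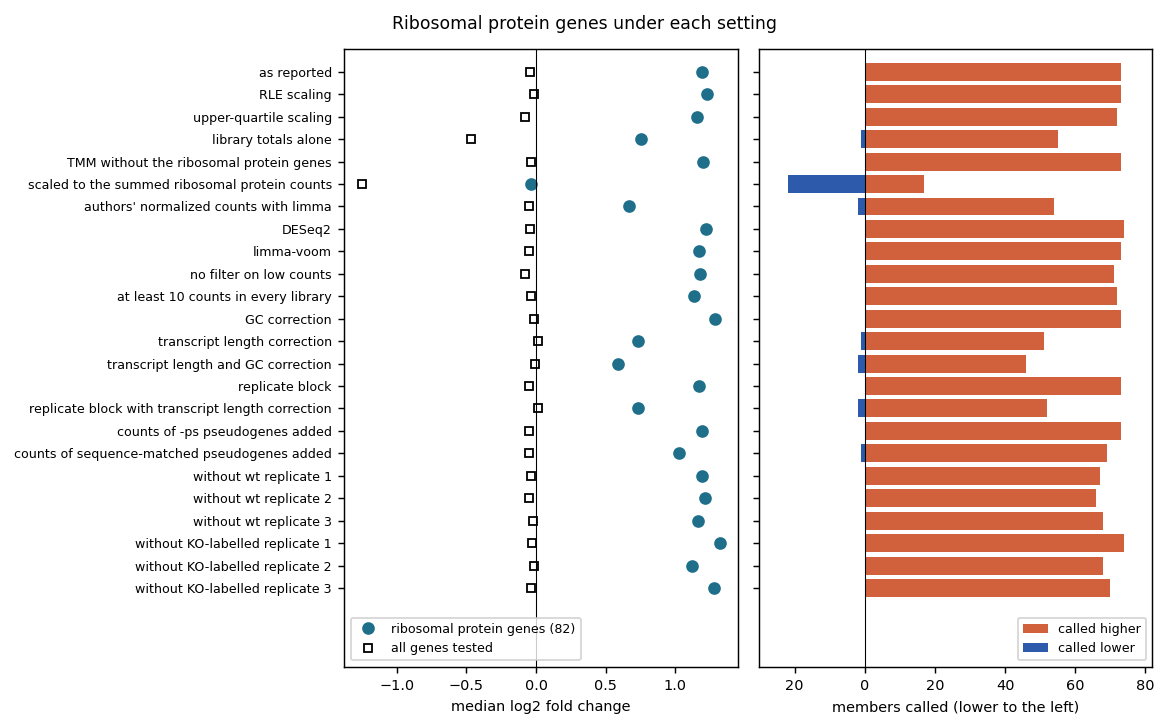
The left panel gives the median log2 fold change of the 82 members and of all genes tested (horizontal axis) under each setting (vertical axis), and the right panel the number of members called higher (to the right) and lower (to the left). The members' median lies above that of all genes in every setting shown, and it is at -0.033 only where libraries were scaled to the summed RP counts. Settings that change only the scaling move both medians nearly alike.

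RP genes that the symbol rule leaves out were listed apart. Of the 3 tested, 2 were called higher (66.7%, against 22.8% of all genes), 0 lower and 1 was not called. Fau, the ubiquitin-like fusion of Rps30, had 208, 166 and 172 CPM in wt and 382, 593 and 450 CPM in KO-labelled libraries (1.39, adjusted p = 2.13e-05), and Rack1, a scaffold on the small subunit, rose from 554, 555 and 614 CPM to 983, 1370 and 1390 CPM (1.12, adjusted p = 1.58e-04). In both the groups did not overlap.

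Other genes with TOP-type mRNAs moved in both directions, with 11 of 19 called higher (57.9%, against 22.8% of all genes) and 2 lower (10.5%, against 22.1%) and a median log2 fold change of 0.69. The elongation factor gene Eef1a1 had 399, 396 and 400 CPM in wt and 955, 852 and 777 CPM in KO-labelled libraries (1.11, adjusted p = 1.02e-04). Tpt1 (1.79, adjusted p = 8.50e-06), Naca, a subunit of the nascent chain complex (1.29, adjusted p = 5.00e-05), and the poly(A)-binding protein gene Pabpc1 (1.01, adjusted p = 1.29e-03) also rose. The translocase gene Eef2, in contrast, had 2780, 2630 and 2520 CPM in wt and 2260, 1560 and 1640 CPM in KO-labelled libraries (-0.54, adjusted p = 0.0410), and the nucleolar chaperone gene Npm1 388, 456 and 515 CPM against 408, 199 and 247 CPM (-0.67, adjusted p = 0.0252). Eef2 was not called when any library other than KO-labelled replicate 1 was left out (adjusted p = 0.0608 to 0.169), nor with RLE scaling, without the filter on low counts or with the corrections for GC content or transcript length (adjusted p = 0.0503 to 0.644), nor was Npm1 without wt replicate 2 or 3 or KO-labelled replicate 2 or 3 (adjusted p = 0.0629 to 0.155).

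Of 39 ribosome biogenesis factors tested, 9 were called higher (23.1%) and 8 lower (20.5%), near the 22.8% and 22.1% of all genes, with a median log2 fold change of 0.06 (-0.046 over all genes). The difference from the RP genes was not tested. Nip7, a factor of the large subunit, rose from 61.8, 51.9 and 54.1 CPM to 182, 306 and 296 CPM (2.23, adjusted p = 1.58e-07) and Rrs1, which helps to bring in the 5S RNP, had a log2 fold change of 1.49 (adjusted p = 1.16e-05). Nucleolin (Ncl) fell from 1320, 1240 and 1100 CPM to 558, 381 and 405 CPM (-1.44, adjusted p = 1.17e-05). Fibrillarin (Fbl), the methylase of the rRNA, had 15.6 to 17.1 CPM in wt against 19.9 to 21.4 CPM and was not called (0.34, adjusted p = 0.340).

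RNA polymerase I and its factors gave 5 calls in each direction among 13 genes (38.5% each way, against 22.8% higher and 22.1% lower over all genes), with a median log2 fold change of -0.25. Polr1a, its largest subunit, fell from 18.7, 24.6 and 24.1 CPM to 6.04, 11.1 and 10.2 CPM (-1.30, adjusted p = 2.40e-03), with no call for Polr1a after the length correction (adjusted p = 0.118), and Taf1c, a subunit of its selectivity factor, had 19, 37 and 59 counts in wt and 5, 0 and 7 in KO-labelled libraries (-3.03, adjusted p = 6.53e-05). Znrd1, a zinc ribbon subunit of the enzyme, rose from 6, 11 and 19 counts to 39, 45 and 45 (2.02, adjusted p = 5.13e-05). The rDNA factor Ubtf was called higher (0.90, adjusted p = 0.0111), but not without wt replicate 2 (adjusted p = 0.0548), without wt replicate 3 (adjusted p = 0.0673) or with library totals as scaling (adjusted p = 0.167).

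Regulators around mTORC1 and Myc were called higher in 8 (38.1%) and lower in 6 (28.6%) of 21 genes tested, against 22.8% and 22.1% of all genes, with a median log2 fold change of 0.16. The Ragulator subunits Lamtor5, which went from 142, 122 and 118 CPM to 413, 524 and 507 CPM (1.92, adjusted p = 2.44e-07), and Lamtor3 (1.78, adjusted p = 1.56e-06) rose, as did the translation repressor Eif4ebp1 (1.36, adjusted p = 1.95e-05). Larp1, which binds TOP mRNAs, had 43.1, 48.2 and 56.4 CPM against 36.8, 20.5 and 36.8 CPM (-0.65, adjusted p = 0.0395) and was not called without wt replicate 2 or 3 or KO-labelled replicate 2 (adjusted p = 0.0782 to 0.227), nor with DESeq2 (adjusted p = 0.124) or after the corrections for GC content (0.0760) or transcript length (0.613). Mtor (0.46, adjusted p = 0.179) and Rps6kb1 (-0.23, adjusted p = 0.546) were not called, although Mtor was called higher after the length correction (1.07, adjusted p = 4.67e-03). Myc had 0 to 5 counts per library and was not tested.

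Genes of other large complexes and of translation factors were counted for comparison. The mitochondrial RPs, which build a separate ribosome, had 45 of 78 called higher and 1 lower, with a median log2 fold change of 0.78, and the smallest adjusted p were those of Mrps14 (2.28) and Mrpl53 (1.81). Subunits of oxidative phosphorylation had 60 of 79 called higher and 4 lower, with a median of 1.01 and the smallest adjusted p for Ndufa6 (2.32) and Cox7c (2.38). Proteasome subunits had 17 of 36 called higher and 6 lower (median 0.41), with the smallest adjusted p for Psma3 (2.32) and Psma5 (2.06). Translation factors, taken by Eif and Eef symbols and so with the repressor Eif4ebp1 among them, had 17 of 62 higher and 16 lower (median 0.02). These shares of 27.4% and 25.8% lay near the 22.8% and 22.1% of all genes. The smallest adjusted p in that list were those of Eif4a1 (1.45) and Eif4ebp1. The median transcript length was 1100 bases for the RP genes, 1001 for oxidative phosphorylation, 1866 for mitochondrial RPs, 1851 for the proteasome and 2791 for translation factors. After the length correction, the median log2 fold changes of these lists were 0.73, 0.66, 0.49, 0.19 and 0.03 in the same order. Shares called higher above the 22.8% of all genes were thus also measured in other complexes, and no difference between these lists was tested.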

How the data were processed

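Quant-Seq reads were cleaned by the authors with Trim Galore and mapped to GRCm38 by HISAT2, followed by Bowtie2. Their gene counts are sums over 3′ UTR regions, made with metaseqR2. The deposited raw counts per gene were used for every comparison. The deposited normalized counts, which the authors scaled with EDASeq and which are whole numbers, were treated as a score on a relative scale and entered only an alternative. Whether the counting kept to the strand, and how reads with several positions were placed, is not given in the sources used here. Of 55364 genes, 55104 matched the annotation (GENCODE, GRCm38) and 33644 had no count.

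Counts were tested with edgeR 4.0.16 in R 4.3.3 (filterByExpr, TMM, robust quasi-likelihood F test) over all 6 libraries, and every adjusted p comes from this tool with Benjamini-Hochberg adjustment unless another is named. The fit had a common dispersion of 0.0429 and 19.2 prior degrees of freedom (median). CPM used the scaled library sizes. Standard errors and 95% intervals come from the fit. Pseudogenes were matched with blastn 2.17.0 (E-value up to 1e-10). Length and GC corrections removed the loess trend (span 0.5, prior count 2) of each library. Promoter sequences are those of RefSeq. The step was tested on simulated counts. Values of every library are given for the 5 members with the highest and the 5 with the lowest fold change, the 3 of each subunit with the highest mean CPM, members with known roles or like-named paralogs, and the 2 genes of each pathway list with the smallest adjusted p. Rpl36, Rps7, Rpl34, Rps9, Rps15, Rps27rt, Rpl19, Rpl37a, Rpl41, Rps3a1 and Rps23-ps1 were named after their values were seen. The members, the lists and the tests were chosen with earlier results of these data known. Alternatives used DESeq2 1.42.0, limma 3.58.1 (voom, and log2 of the normalized counts with a pseudocount of 1), other scalings and filters, the corrections, added pseudogene counts and libraries left out. Python 3.11.15, pandas 2.3.3, numpy 2.4.6, scipy 1.17.1 and matplotlib 3.10.9 were used for tables and plots. Columns of fold changes and the enrichment analyses of the study were not used. Some genes that the naming rule or the lists cover are not reported here one by one and are not drawn as single points.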

Additional observations from a re-analysis of the deposited data

How the results depend on the processing

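The number of members called higher was 73 and stayed between 71 and 74 with RLE scaling, upper-quartile scaling, TMM without the RP genes, DESeq2, limma-voom, no low-count filter, a minimum of 10 counts per library, the GC correction and added counts of -ps pseudogenes. In the first 5 of these, 2422, 2256 and 2377 of 10346, 2094 of 21720 and 2315 of 10346 of all genes were called higher. In the others it was 2456 of 21720, 1893 of 7906, 2435 of 10346 and 2324 of 10250. It was 55 with library totals, 54 with the authors' normalized counts in limma, 51 with the length correction, 46 with the length and GC correction, 69 with matched pseudogenes added and 17 with scaling to the summed RP counts. Over all genes, those called higher were in that order 1362, 2182, 2165 and 1946 of 10346, 2276 of 10088 and 340 of 10346. Members called lower were 1 (Rpl26) with library totals, 2 (Rpl26 and Rpl7) with the normalized counts, 1 (Rpl26) with the length correction, 2 (Rpl26 and Rps4x) with the length and GC correction, 1 (Rpl28) with matched pseudogenes and 22 with scaling to the summed RP counts. Among all genes the numbers called lower were in that order 3944, 2175, 1861 and 1805 of 10346, 2234 of 10088 and 7288 of 10346. The members' median log2 fold change of 1.19 was 0.756, 0.669, 0.734, 0.589, 1.025 and -0.033 in the same order. The difference of the shares, 4.95 percentage points, was 5.55 with -ps pseudogenes and 5.94 with matched pseudogenes added. Leaving out each library gave 66 to 74 members higher, 0 lower and a median of 1.12 to 1.318. In those fits 2007 to 2477 of the 10683 to 10944 genes tested were called higher. In 22 alternatives other than the scaling to the family, 39 members were called higher in all, 24 of the large and 15 of the small subunit. The same count over all genes was not made. The cause of these shifts was not tested. Transcript length and membership of the family cannot be told apart fully, since 79 members are shorter than the median gene.

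The labels do not say whether the replicate numbers pair the libraries. Deviations of same-numbered libraries correlated at -0.001, -0.064 and 0.082, within the -0.102 to 0.097 of libraries with unlike numbers. No pairing was seen, and so few libraries cannot exclude it. The replicate block gave 73 members higher and 0 lower with a median of 1.169, and the block with the length correction gave 52 higher, 2 lower (Rpl26 and Rpl28) and a median of 0.73. Of all 10346 genes, the block gave 2360 higher and 2308 lower, and the block with the length correction gave 2148 and 1863.

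The log2 fold changes of some named genes changed sign. With the normalized counts the value was 0.002 for Rpl28, -0.401 for Rpl8, -0.127 for Rpl5, -0.708 for Rpl7, -0.022 for Rpl36al and -0.048 for Rpl36. With the GC correction it was 0.015 for Rpl28. Rps4x, at -0.006 as reported, was 0.03 with RLE scaling, 0.002 with TMM without the RP genes, 0.027 with DESeq2, 0.123 with limma-voom and 0.128 with the replicate block. With library totals it was -0.27 for Rpl8, -0.208 for Rps6, -0.024 for Rpl5, -0.201 for Rpl7, -0.13 for Rpl36al, -0.082 for Fbl and -0.132 for Sh3pxd2a. With scaling to the RP counts it was -1.055 for Rpl8, -0.978 for Rps6, -0.029 for Rplp1, -0.261 for Rps24, -0.181 for Rps19, -0.449 for Rplp0, -0.355 for Rplp2, -0.807 for Rpl5, -0.05 for Rpl38, -0.977 for Rpl7, -0.578 for Rpl7l1, -0.905 for Rpl36al, -0.755 for Rpl36, -0.103 for Rack1, -0.084 for Eef1a1, -0.187 for Pabpc1, -0.862 for Fbl, -0.303 for Ubtf, -0.752 for Mtor and -0.921 for Sh3pxd2a. With the length correction it was -0.394 for Rpl8, -0.297 for Rps6, -0.073 for Rpl7, -0.146 for Rpl36al, -0.33 for Rpl36 and 0.173 for Rps6kb1. With the length and GC correction it was -0.208 for Rpl8, -0.098 for Rps6, -0.189 for Rpl5, -0.522 for Rpl7, -0.369 for Rpl36al, -0.104 for Rpl36 and 0.079 for Rps6kb1. With the block with the length correction it was -0.395 for Rpl8, -0.38 for Rps6, -0.107 for Rpl7, -0.15 for Rpl36al, -0.328 for Rpl36 and 0.136 for Rps6kb1. The fits that leave out a library spanned -0.198 to 0.259 for Rpl28, -0.233 to 0.562 for Rps4x and -0.175 to 0.519 for Rps6.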
